A study of Mus musculus with 6 samples.

Results

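Interferon-stimulated genes are transcripts that cells switch on when interferon binds its receptor, and 46 of them were followed here, of 55536 genes in the count table. They were chosen by name, as the rows whose gene symbol stands in a fixed list of 46. The rule uses no measured value, but the list was drawn up with earlier results of these data known. The RNA came from thymocytes, the developing T cells of the mouse thymus, in steady state. Labels of 3 libraries give the genotype Il3ra-/- (titles IL3RAKO), mice that lack the interleukin-3 receptor's alpha chain, and labels of 3 libraries give Il3ra+/+ (titles WT), the wildtype, from 3 mice in each genotype and with no treatment named for either. The labels used here state neither the strain nor the age of the mice, nor which part of Il3ra was deleted. All 46 genes passed the filter on low counts, as did 18690 genes in all, and none of the 46 was under 1 CPM (the count scaled to a common library size) in any library.

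Type I interferons act through a receptor of the chains Ifnar1 and Ifnar2, which activates Stat2. Stat2 joins Irf9 in a complex that binds a promoter element rich in GAAA repeats, the interferon-stimulated response element (ISRE). Interferon gamma acts through Ifngr1 and Ifngr2, and its targets often carry a palindrome called the gamma-activated site (GAS). Its best known targets include Irf1 and the large GTPases of the Gbp and immunity-related families, which attack membranes around intracellular microbes. In the thymus, interferons are made without infection, and medullary thymocytes that are about to leave carry interferon-stimulated transcripts.

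Total counts were 59135254 to 82684219 in the labelled IL3RAKO libraries and 55747682 to 66534218 in the WT libraries. Il3ra itself had 7.95, 8.02 and 7.39 CPM in labelled IL3RAKO replicates 1 to 3, against 7.80, 6.51 and 6.11 CPM in WT replicates 1 to 3. It was not lower in the libraries labelled IL3RAKO, so this gene does not check the labels, and each higher or lower level is given for the libraries as labelled. The 7 thymocyte markers summed to 7992 to 8632 CPM in the labelled IL3RAKO libraries and 9415 to 10762 CPM in WT, and none of them was at 0. Replicate 1 of each genotype had 128236 (labelled IL3RAKO) and 88078 (WT) counts of Xist, the RNA of the inactive X chromosome, and the other 4 libraries had 8 to 57. Values per library are given in the order of replicates 1, 2 and 3.

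None of the 46 interferon-stimulated genes passed the test between the genotypes (edgeR's quasi-likelihood fit with p-values adjusted by Benjamini-Hochberg over all tested genes; adjusted p = 0.178 to 0.969), where 0.091% of all tested genes did. DESeq2 called 0 of them as well, beside 4.27% of the genes it adjusted. At an unadjusted p under 0.05 stood 9 members by edgeR (19.6%, against 14.6% of all tested genes). By edgeR, 2 of these were higher in the labelled IL3RAKO libraries (Ifit2 and Eif2ak2; 4.35% of members, against 8.01% of all tested genes) and 7 were lower (Irf9, Stat2, Zbp1, Oas2, Samd9l, Igtp and Irgm2; 15.2%, against 6.6%). The 9 became 3 (6.52%) without WT replicate 2 and 4 (8.70%) without labelled IL3RAKO replicate 3, where 6.84% and 9.13% of all genes tested in those fits stood. The median log2 fold over the 46, labelled IL3RAKO over WT, was -0.04, beside 0.01 over all tested genes. The libraries of the genotypes did not overlap in 4 members (8.70%, against 20.3% of all tested genes), of which Ifit2 and Eif2ak2 were higher (4.35%, against 10.9%) and Igtp and Irgm2 lower (4.35%, against 9.38%). With genes of low counts left in, edgeR called 3 members, Ifit2 higher and Irf9 and Oas2 lower (adjusted p = 0.0484, 0.0358 and 0.0463), and 2.53% of the genes tested there. For 45 of the 46 the 95% interval of the fold lay within 2-fold either way, the exception being Ly6a.

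**Figure D1:**
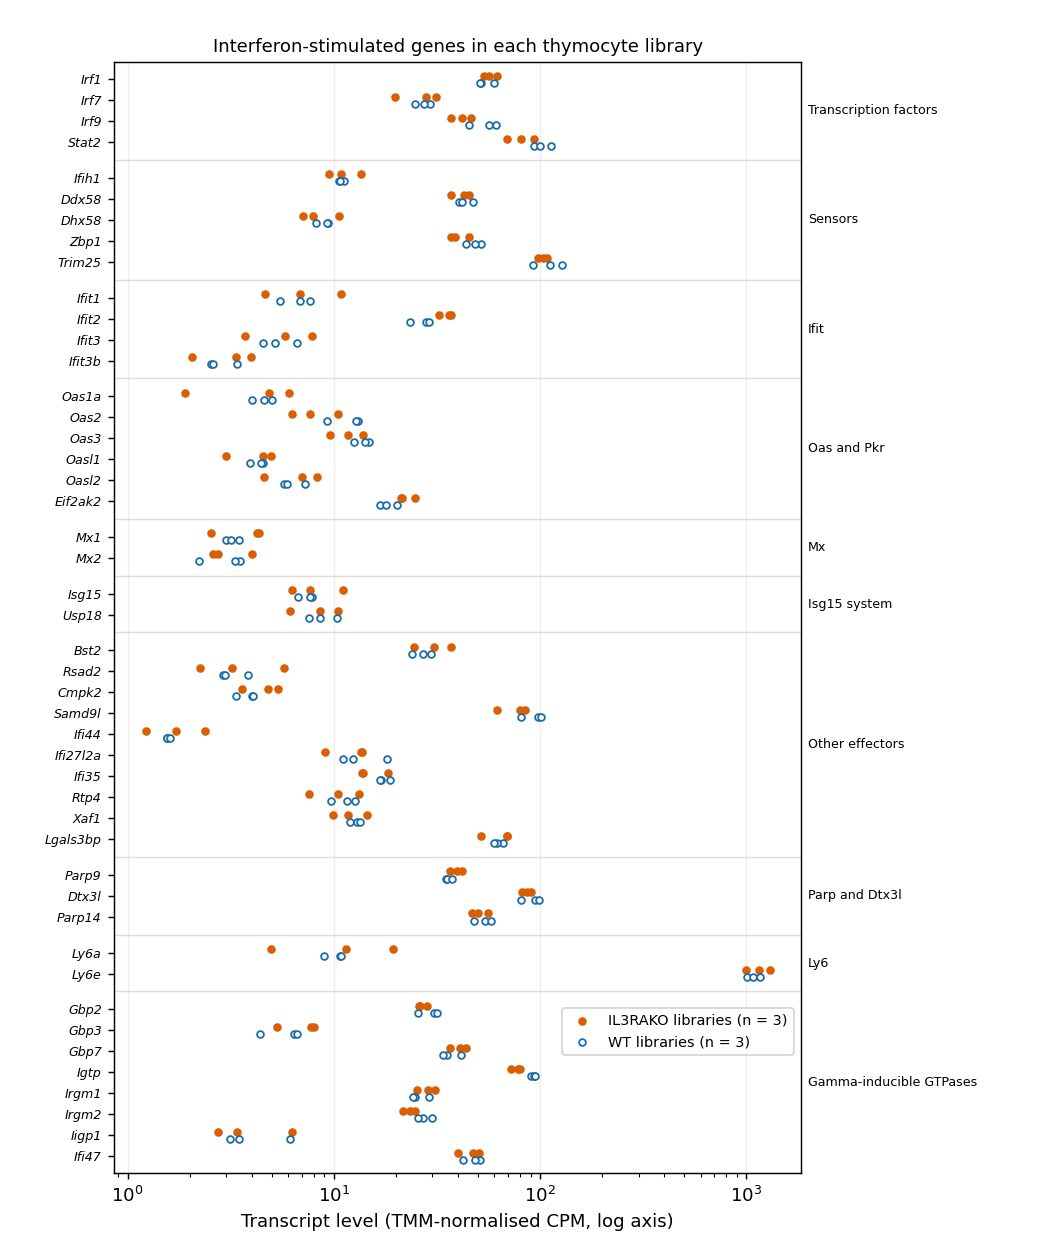
Transcript level of each of the 46 genes in CPM on a log axis, with 1 filled point per labelled IL3RAKO library above 1 open point per WT library (n = 3 each). The points of the genotypes overlap in 42 genes, and in Ifit1, Oas1a and Ly6a the filled points spread wider than the open ones.

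**Figure D2:**
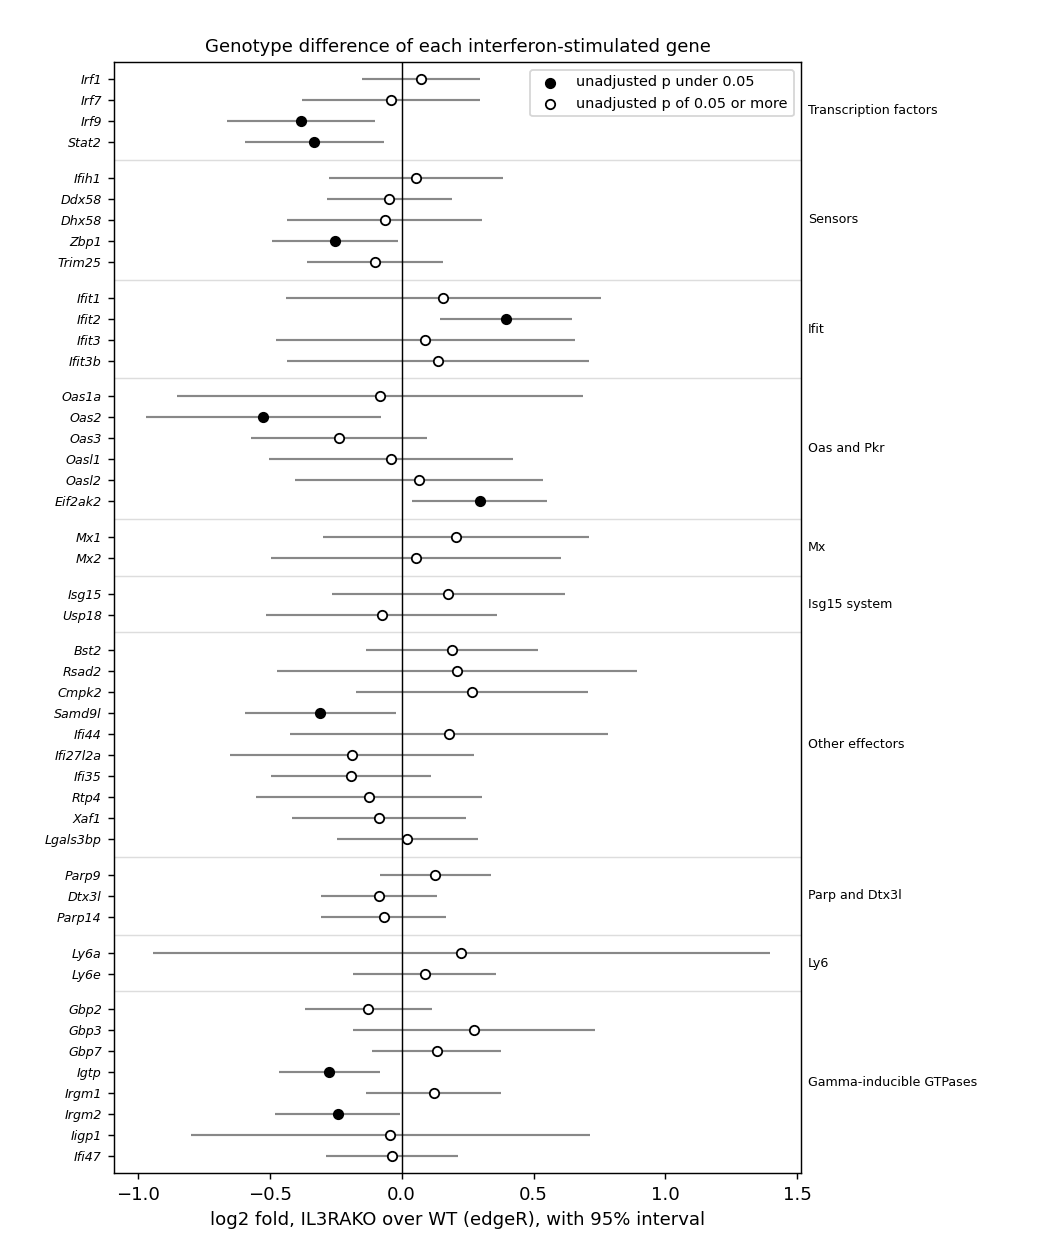
Log2 fold of each gene, labelled IL3RAKO over WT, as a point with its 95% interval from edgeR (n = 3 libraries a genotype). Filled points mark the 9 genes with an unadjusted p under 0.05, 2 to the right of 0 and 7 to the left, and none passed after adjustment over all genes.

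The partners of the type I complex, Irf9 and Stat2, were the leading transcription factors on the lower side, without passing the test. Irf9, its DNA-binding part (chromosome 14, GRCm38), had 41.6, 46.5 and 37.1 CPM in the labelled IL3RAKO libraries, against 45.2, 61.1 and 56.7 CPM in WT. Only WT replicate 1 lay within the range of the labelled IL3RAKO libraries. Its fold was 0.768 (95% interval 0.632 to 0.934; edgeR adjusted p = 0.226), and 123 bases of its exons overlap Rnf31. Stat2, which carries the activating part of the complex, had 93.3, 81.1 and 69.2 CPM in the labelled IL3RAKO libraries, against 93.1, 113 and 100.4 CPM in WT. Here labelled IL3RAKO replicate 1 reached the level of WT replicate 1, and the other libraries stood apart by genotype. The fold of Stat2 was 0.795 (0.662 to 0.955; edgeR adjusted p = 0.253), and without the Xist-high replicate 1 of each genotype its log2 fold was -0.50 (adjusted p = 0.0435 by edgeR), where 3.98% of all genes tested there were called. Irf1, the factor most tied to interferon gamma, had 53.3, 61.6 and 56.2 CPM in the labelled IL3RAKO libraries, against 51.7, 51.1 and 59.9 CPM in WT, and the genotypes overlapped. Irf7, which amplifies type I interferon production, ranged over 19.9 to 31.2 CPM in the labelled IL3RAKO libraries and 24.8 to 29.1 CPM in WT. In bulk RNA, fewer cells that express a gene and less of its RNA per cell cannot be told apart. The thymocyte marker score, the mean log2 CPM of the 7 markers minus its mean over the 6 libraries, was -0.06, -0.11 and -0.14 in the labelled IL3RAKO libraries, against 0.06, 0.17 and 0.07 in WT. It was lower in each labelled IL3RAKO library than in any WT library, and its part in the values of Irf9 and Stat2 was not tested.

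Sensors of foreign RNA and DNA showed small differences. Zbp1, a sensor of left-handed nucleic acids that can start cell death, had 38.7, 45.0 and 36.9 CPM in the labelled IL3RAKO libraries, against 51.7, 43.6 and 48.5 CPM in WT. Labelled IL3RAKO replicate 2 lay above WT replicate 2, so the groups overlapped, and the fold was 0.839 (0.711 to 0.991; edgeR adjusted p = 0.318). Ddx58, which encodes the RNA sensor RIG-I, had 42.9, 45.1 and 37.1 CPM in the labelled IL3RAKO libraries, against 40.3, 42.0 and 47.1 CPM in WT. Trim25, the ubiquitin ligase that activates RIG-I, had 97.7, 107 and 104 CPM in the labelled IL3RAKO libraries, against 91.9, 128 and 112 CPM in WT. The Trim25 values of the labelled IL3RAKO libraries lay inside the WT range, the Ddx58 ranges overlapped in part, and the folds were 0.968 for Ddx58 and 0.933 for Trim25. The sensors Ifih1 (MDA5) and Dhx58 (LGP2) were lower in level, at 9.45 to 13.5 and 7.09 to 10.5 CPM in the labelled IL3RAKO libraries and 10.6 to 11.2 and 8.17 to 9.34 CPM in WT.

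The Ifit genes, whose proteins bind viral RNA ends, differed in how they varied among the libraries. Ifit2 had 36.2, 32.2 and 37.2 CPM in the labelled IL3RAKO libraries, against 23.3, 28.1 and 28.9 CPM in WT. Each labelled IL3RAKO library exceeded each WT library. Ifit2 had the smallest p of the 46, with a fold of 1.32 (1.11 to 1.56; edgeR adjusted p = 0.178), and its log2 fold was 0.31 to 0.46 when any single library was left out. Ifit1 had 4.66, 10.8 and 6.88 CPM in the labelled IL3RAKO libraries, against 6.86, 5.50 and 7.69 CPM in WT. Ifit3, an Ifit1 partner, had 3.72, 7.85 and 5.81 CPM in the labelled IL3RAKO libraries, against 6.64, 4.55 and 5.16 CPM in WT, and Ifit3b had 2.05, 3.96 and 3.36 CPM against 3.40, 2.54 and 2.59 CPM. In these 3 genes labelled IL3RAKO replicate 1 was the lowest and replicate 2 the highest of all 6 libraries, so the WT values lay inside the range of the labelled IL3RAKO ones. Their log2 folds of 0.16, 0.09 and 0.14 changed sign when labelled IL3RAKO replicate 2 was left out, to -0.21, -0.19 and -0.07. Ifit3 and Ifit3b are close copies: of the 50-base windows of the longest Ifit3 transcript, 51.2% occur letter for letter in Ifit3b. A read that lies wholly in shared sequence cannot be assigned to 1 copy.

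The Oas genes, which make oligoadenylates that switch on RNase L, overlapped between the genotypes in every case. Oas2 had 7.63, 10.5 and 6.27 CPM in the labelled IL3RAKO libraries, against 9.24, 13.0 and 12.8 CPM in WT. Its fold of 0.696 (0.510 to 0.948; edgeR adjusted p = 0.275) was the largest difference of the 46 in either direction, and labelled IL3RAKO replicate 2 lay within the WT range. Oas3 had 9.58, 13.9 and 11.7 CPM in the labelled IL3RAKO libraries, against 14.8, 14.2 and 12.5 CPM in WT. Oas1a had 1.90, 6.08 and 4.84 CPM in the labelled IL3RAKO libraries, against 4.56, 5.04 and 4.03 CPM in WT. The Oas1a values of WT lay within a 1.25-fold range, and those of the labelled IL3RAKO libraries spanned 3.20-fold, with replicate 1 at the bottom. Of the 50-base windows of Oas1a, 57.6% occur in its neighbour Oas1g, and reads wholly in shared sequence cannot be told from that gene. Oasl1 and Oasl2 ranged over 3.01 to 4.96 and 4.58 to 8.29 CPM in the labelled IL3RAKO libraries and 3.92 to 4.53 and 5.74 to 7.28 CPM in WT. Eif2ak2, the kinase PKR that stops translation when it meets viral RNA, stood on the other side. It had 21.5, 24.6 and 21.1 CPM in the labelled IL3RAKO libraries, against 16.7, 17.9 and 20.1 CPM in WT, with no overlap and a fold of 1.23 (1.03 to 1.46; edgeR adjusted p = 0.280).

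Low in all libraries were the Mx genes, dynamin-like GTPases that trap viral particles. Mx1 had 2.54, 4.22 and 4.35 CPM in the labelled IL3RAKO libraries, against 3.00, 3.48 and 3.17 CPM in WT. Mx2 had 2.74, 4.03 and 2.59 CPM in the labelled IL3RAKO libraries, against 2.21, 3.50 and 3.32 CPM in WT. The groups overlapped in both, with folds of 1.15 and 1.04. Isg15, a ubiquitin-like modifier, had 6.29, 11.1 and 7.66 CPM in the labelled IL3RAKO libraries, against 7.82, 7.68 and 6.66 CPM in WT. Usp18, the protease that removes Isg15 and dampens the receptor, had 6.11, 10.4 and 8.57 CPM in the labelled IL3RAKO libraries, against 7.56, 10.3 and 8.61 CPM in WT. Labelled IL3RAKO replicate 1 was again the lowest and replicate 2 the highest library in both genes.

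Promoter sequences of 5 members with labelled IL3RAKO replicate 1 lowest and replicate 2 highest, and of 3 members at an unadjusted p under 0.05, show where the elements of both interferon types lie. Windows of 300 bases (250 before to 50 after the gene start) were taken from RefSeq on GRCm38.p6, which matched 33 of the 46 members. Not matched were Oas2, Mx1, Mx2, Dhx58, Usp18, Zbp1, Iigp1, Parp9, Parp14, Ly6a, Ly6e, Ifi27l2a and Rtp4. The 8 windows printed were chosen among members that hold an ISRE core. Ifit2, Irf9 and Samd9l, also at an unadjusted p under 0.05, hold none in their windows and are not printed. The windows below are Ifit1 (chr19:34640639-34640938, plus strand), Ifit3 (chr19:34583279-34583578, plus strand), Ifit3b (chr19:34607707-34608006, plus strand), Isg15 (chr4:156200769-156201068, minus strand), Oas1a (chr5:120907476-120907775, minus strand), Stat2 (chr10:128270248-128270547, plus strand), Igtp (chr11:58199306-58199605, plus strand) and Eif2ak2 (chr17:78882523-78882822, minus strand). Each is written 5′ to 3′ on the gene's strand, and capitals mark matches to the ISRE core GAAANNGAAA on either strand and to the GAS core TTCNNNGAA, which reads the same on both strands.
Ifit1: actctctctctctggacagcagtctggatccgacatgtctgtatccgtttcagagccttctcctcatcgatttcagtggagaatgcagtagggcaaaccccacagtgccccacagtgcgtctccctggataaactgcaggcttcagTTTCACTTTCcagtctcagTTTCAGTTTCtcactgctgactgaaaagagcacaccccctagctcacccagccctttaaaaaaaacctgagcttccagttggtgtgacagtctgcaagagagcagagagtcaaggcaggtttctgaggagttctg
Ifit3: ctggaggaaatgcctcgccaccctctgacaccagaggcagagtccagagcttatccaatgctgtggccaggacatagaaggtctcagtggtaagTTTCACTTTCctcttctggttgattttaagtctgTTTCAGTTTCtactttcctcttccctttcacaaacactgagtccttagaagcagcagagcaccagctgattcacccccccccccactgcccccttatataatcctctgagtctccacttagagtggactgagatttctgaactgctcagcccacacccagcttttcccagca
Ifit3b: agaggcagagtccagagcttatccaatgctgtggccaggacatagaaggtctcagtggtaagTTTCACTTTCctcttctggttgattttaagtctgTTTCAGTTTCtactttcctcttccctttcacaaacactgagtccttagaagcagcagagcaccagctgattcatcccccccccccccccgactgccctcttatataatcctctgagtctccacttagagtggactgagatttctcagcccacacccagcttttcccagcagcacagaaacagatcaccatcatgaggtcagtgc
Isg15: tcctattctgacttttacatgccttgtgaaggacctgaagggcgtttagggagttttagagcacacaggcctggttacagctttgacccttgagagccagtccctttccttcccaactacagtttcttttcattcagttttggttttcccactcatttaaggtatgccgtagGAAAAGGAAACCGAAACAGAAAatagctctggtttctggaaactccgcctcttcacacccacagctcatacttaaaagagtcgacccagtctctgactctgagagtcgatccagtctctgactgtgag
Oas1a: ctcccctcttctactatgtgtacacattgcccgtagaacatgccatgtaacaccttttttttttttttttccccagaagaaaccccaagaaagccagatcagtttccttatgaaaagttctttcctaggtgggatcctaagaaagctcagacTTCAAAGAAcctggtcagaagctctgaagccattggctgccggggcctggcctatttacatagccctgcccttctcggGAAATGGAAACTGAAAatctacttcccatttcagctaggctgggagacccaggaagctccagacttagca
Stat2: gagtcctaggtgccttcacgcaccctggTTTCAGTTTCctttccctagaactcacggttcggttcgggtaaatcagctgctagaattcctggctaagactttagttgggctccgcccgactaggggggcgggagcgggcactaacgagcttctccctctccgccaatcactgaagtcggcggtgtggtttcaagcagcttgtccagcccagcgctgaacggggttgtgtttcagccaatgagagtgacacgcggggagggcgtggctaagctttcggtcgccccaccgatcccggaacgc
Igtp: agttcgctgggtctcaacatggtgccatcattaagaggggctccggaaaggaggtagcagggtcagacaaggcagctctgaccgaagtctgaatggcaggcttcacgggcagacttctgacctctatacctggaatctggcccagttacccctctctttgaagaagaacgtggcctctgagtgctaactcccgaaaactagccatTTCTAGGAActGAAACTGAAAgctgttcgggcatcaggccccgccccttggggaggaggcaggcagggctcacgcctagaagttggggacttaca
Eif2ak2: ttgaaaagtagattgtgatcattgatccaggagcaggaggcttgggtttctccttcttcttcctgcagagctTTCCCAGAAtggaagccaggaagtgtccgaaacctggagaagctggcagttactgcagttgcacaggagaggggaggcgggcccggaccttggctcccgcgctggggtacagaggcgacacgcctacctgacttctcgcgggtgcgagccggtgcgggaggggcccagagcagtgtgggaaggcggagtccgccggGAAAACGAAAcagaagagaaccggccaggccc

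Ifit1, Ifit3 and Ifit3b each held 2 ISRE cores, with the same letters in the same order, and the Ifit3 and Ifit3b windows were 75.9% identical. Isg15 held 3 that overlap end to end and Oas1a held 2, whereas Stat2, Igtp and Eif2ak2 held 1 each. A GAS core was found in Oas1a, Igtp and Eif2ak2 among these 8. The ISRE core was present in 18 of the 33 matched members (54.5%) and in 18 of their 37 windows (48.6%), against 3.44% of all 32851 windows. The GAS core was present in 9 of 33 members (27.3%), in 24.3% of their windows against 8.30% of all windows. Bst2 was the member in which matches of both motifs overlapped. Of the 18 members with the ISRE core, 7 had labelled IL3RAKO replicate 1 lowest and replicate 2 highest of the 6 libraries, as had 5 of the 15 without it. The median log2 fold was 0.11 in the 18 and -0.04 in the 15. A match is a run of letters and does not show binding.

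Among the other antiviral effectors 1 of 10 had an unadjusted p under 0.05, against 14.6% of all tested genes. Samd9l, an inhibitor of translation and growth, had 84.6, 79.7 and 61.9 CPM in the labelled IL3RAKO libraries, against 81.0, 98.1 and 101 CPM in WT. Labelled IL3RAKO replicate 1 exceeded WT replicate 1, and the fold was 0.808 (0.663 to 0.984; edgeR adjusted p = 0.306). Rsad2 (viperin), an enzyme that makes a chain-ending nucleotide, had 2.25, 5.74 and 3.19 CPM in the labelled IL3RAKO libraries, against 2.90, 3.84 and 2.96 CPM in WT. Cmpk2, the kinase next to it that supplies its substrate, had 3.57, 4.81 and 5.35 CPM in the labelled IL3RAKO libraries, against 3.34, 4.03 and 4.04 CPM in WT. The highest labelled IL3RAKO library was thus replicate 2 for Rsad2 and replicate 3 for its neighbour. Bst2 (tetherin), which holds budding virus at the membrane and also marks plasmacytoid dendritic cells, had 24.5, 30.6 and 37.0 CPM in the labelled IL3RAKO libraries, against 27.1, 29.7 and 23.8 CPM in WT. Ifi35 had 13.8, 18.4 and 13.7 CPM in the labelled IL3RAKO libraries, against 17.0, 18.8 and 16.7 CPM in WT. The remaining effectors Ifi44, Ifi27l2a, Rtp4, Xaf1 and Lgals3bp overlapped between the genotypes, with log2 folds of 0.18, -0.19, -0.12, -0.09 and 0.02.

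Parp9 and Dtx3l, partners in a ubiquitin ligase complex whose genes start head to head on chromosome 16, differed little. Parp9 had 36.5, 42.0 and 39.4 CPM in the labelled IL3RAKO libraries, against 34.9, 35.4 and 37.6 CPM in WT. Dtx3l had 86.5, 89.9 and 81.9 CPM in the labelled IL3RAKO libraries, against 80.5, 94.4 and 99.1 CPM in WT. Parp14, an ADP-ribosyl transferase beside them, had 49.7, 55.8 and 46.6 CPM in the labelled IL3RAKO libraries, against 47.6, 54.0 and 57.9 CPM in WT. All 3 overlapped, with folds of 1.09, 0.943 and 0.954. The exons of Parp9 and Dtx3l overlap on opposite strands and the sources used here do not state whether the counting used strand.

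The Ly6 members, cell surface proteins held by a lipid anchor, behaved unlike each other. Ly6e, the most abundant of the 46 per kilobase of exon (294 CPM per kilobase), had 1148, 999.5 and 1296 CPM in the labelled IL3RAKO libraries, against 1158, 1004 and 1081 CPM in WT. Ly6a (Sca-1), which marks progenitors and activated lymphocytes, had 4.96, 11.4 and 19.4 CPM in the labelled IL3RAKO libraries, against 10.8, 10.8 and 8.98 CPM in WT. Its labelled IL3RAKO libraries spanned 3.91-fold, the widest range of the 46, and here replicate 3 was at the top. The fold of Ly6a was 1.17 with an interval of 0.520 to 2.63, too wide to place it on either side.

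Of the 8 gamma-inducible GTPases, Igtp and Irgm2 were lower in every labelled IL3RAKO library than in any WT library (25%, against 9.38% of all tested genes). Neither passed the test. Igtp (Irgm3), which keeps effector GTPases off the cell's own membranes, had 72.6, 79.5 and 78.1 CPM in the labelled IL3RAKO libraries, against 89.9, 93.9 and 94.5 CPM in WT. This was the steadiest difference of the class, with a fold of 0.827 (0.725 to 0.944; edgeR adjusted p = 0.208) and log2 folds of -0.30 to -0.23 when any single library was left out. Irgm2, its neighbour on chromosome 11 with a like role, had 24.9, 21.7 and 23.4 CPM in the labelled IL3RAKO libraries, against 27.1, 30.0 and 25.7 CPM in WT. Its fold was 0.845 (0.718 to 0.995; edgeR adjusted p = 0.330). The annotated exons of Igtp and Irgm2 share 162 bases on the same strand, so reads that lie wholly there cannot be told apart. How such reads were counted is not stated, so the pair may not be independent. Gbp3 had 5.30, 7.75 and 7.98 CPM in the labelled IL3RAKO libraries, against 6.39, 4.40 and 6.60 CPM in WT. Iigp1, an effector that coats the vacuoles of parasites, had 2.74, 6.24 and 3.38 CPM in the labelled IL3RAKO libraries, against 3.47, 3.15 and 6.14 CPM in WT. Iigp1 thus had 1 high library in each genotype, labelled IL3RAKO replicate 2 and WT replicate 3. Gbp2, Gbp7, Irgm1 and Ifi47 overlapped between the genotypes, with log2 folds of -0.13, 0.13, 0.12 and -0.04.

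Set side by side, type I genes and gamma-inducible GTPases differed in spread more than in direction. The 11 type I genes (Ifit, Oas and Mx) had a median log2 fold of 0.07, and the 8 GTPases had one of -0.04. Without labelled IL3RAKO replicate 1 the type I median was 0.27, and without replicate 2 it was -0.18. Type I genes ranged over 0.848 to 7.89 CPM per kilobase of exon and GTPases over 0.719 to 41.9, with Ifit2 and Igtp at the top of their classes. The score of a class in a library is the mean log2 CPM of its genes minus its mean over the 6 libraries. For type I genes it was -0.43, 0.35 and 0.04 in the labelled IL3RAKO libraries, against -0.04, 0.02 and 0.05 in WT. The labelled IL3RAKO scores lay on both sides of the WT scores, with an SD of 0.39 (n = 3) against 0.04 in WT (n = 3). A wider labelled IL3RAKO spread was not particular to type I genes. The SDs were 0.27 and 0.04 for the other effectors and 0.66 and 0.07 for conventional dendritic cell markers. For late mature thymocyte markers they were 0.16 and 0.19. GTPase scores were -0.17, 0.13 and -0.01 in the labelled IL3RAKO libraries, against 0.01, -0.13 and 0.17 in WT, with SDs of 0.15 in each. The type I score minus the GTPase score was -0.26, 0.22 and 0.05 in the labelled IL3RAKO libraries, against -0.04, 0.15 and -0.12 in WT. Its mean differed between the genotypes by 0.01 (labelled IL3RAKO minus WT), less than the SDs of 0.24 (labelled IL3RAKO) and 0.14 (WT).

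The libraries labelled IL3RAKO stood apart from each other, with replicate 1 often lowest and replicate 2 often highest. Labelled IL3RAKO replicate 1 was the lowest of the 6 libraries in 22 members (47.8%), against 19.7% of all tested genes. Labelled IL3RAKO replicate 2 was the highest in 23 members (50.0%), against 9.05% of all tested genes. Both held at once in 16 members (34.8%, against 2.29% of all tested genes), and 6 of these were type I genes. The lowest and the highest labelled IL3RAKO library enclosed the WT range in 20 members (43.5%, against 17.1% of all tested genes). In 34 members (73.9%) the highest and the lowest library were further apart, as a ratio, in the labelled IL3RAKO group than in WT, against 51.2% of all tested genes. The median ratio of the highest to the lowest library was 1.46 in the labelled IL3RAKO group and 1.21 in WT over the 46, beside 1.28 and 1.28 over all tested genes. These counts describe 6 libraries and were made after the values were seen, so they carry no test.

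**Figure D3:**
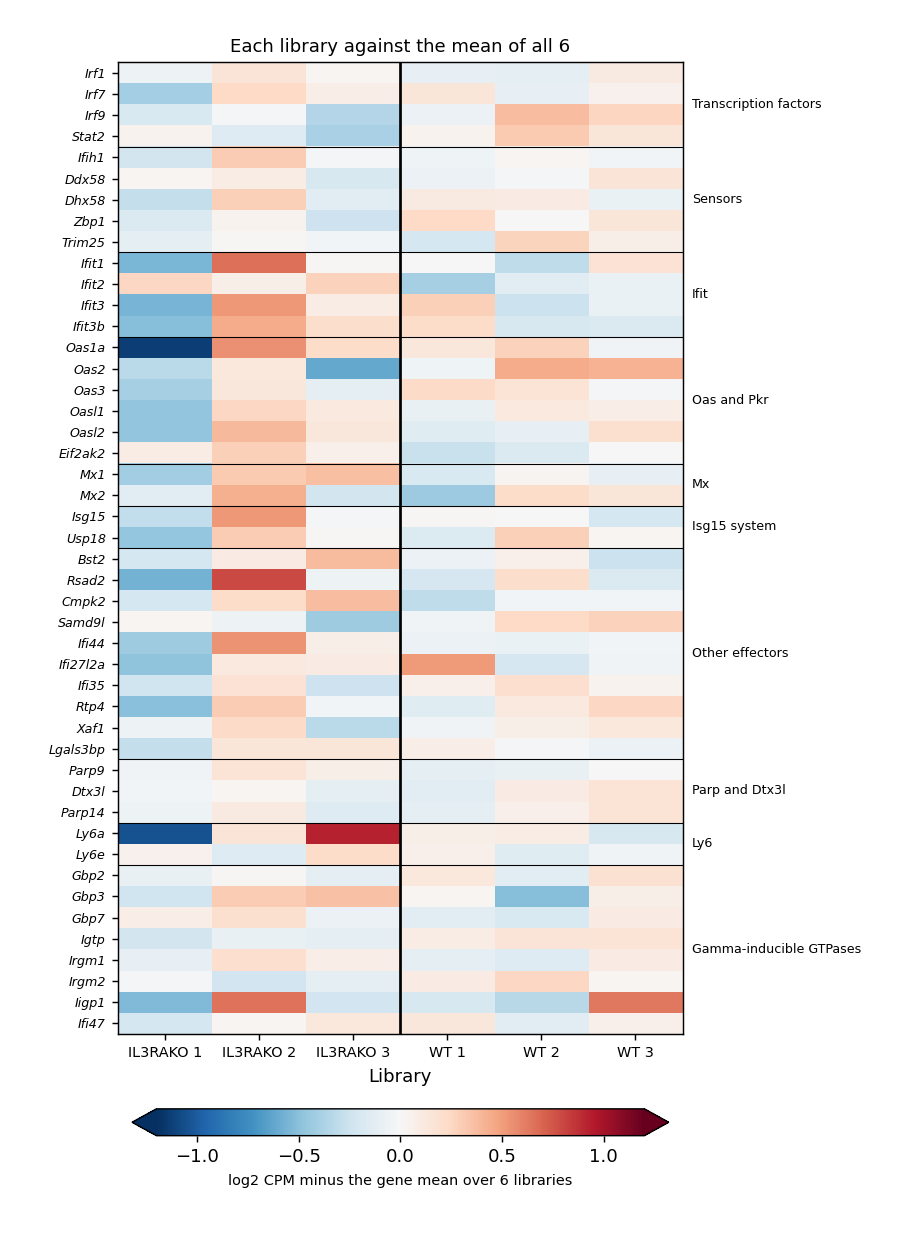
Log2 CPM of each gene in each library minus the mean of that gene over all 6 libraries (colour; the scale ends at 1.2 either way), with labelled IL3RAKO replicates left of the line and WT right of it. Labelled IL3RAKO replicate 1 is the lowest library in 22 of 46 rows and replicate 2 the highest in 23, while Ly6a peaks in labelled IL3RAKO replicate 3.

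The type I score differed between the genotypes in opposite directions in the Xist-high libraries and in the means of the Xist-low libraries. Between the Xist-high replicate 1 libraries the type I score differed by -0.39 (labelled IL3RAKO minus WT), and between the Xist-low replicates 2 and 3 by 0.16. For the Ifit genes alone these differences were -0.37 and 0.42, and for the GTPases -0.17 and 0.04. The Xist-low type I scores overlapped between the genotypes. Labelled IL3RAKO replicates 2 and 3 scored 0.35 and 0.04, against 0.02 and 0.05 in WT replicates 2 and 3. The Xist-high pair holds 1 library of each genotype, so its difference has no replicate error and no test was made of the change in direction. In 32 of the 46 members labelled IL3RAKO replicate 1 was below WT replicate 1 (69.6%, against 50.3% of all tested genes). Among the labelled IL3RAKO libraries total counts ran in the same order as the type I scores, lowest in replicate 1 (59135254) and highest in replicate 2 (82684219). WT replicate 2 had fewer counts (55747682) with a type I score of 0.02, and the part of depth in these scores was not tested.

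Markers of other cells also differed among the labelled IL3RAKO libraries. Replicate 1 had the lowest score among them for B cell (-0.66), erythroid (-2.06), thymic epithelium (-0.14) and fibroblast and endothelium (-0.16) markers. The 5 lists that follow, before that of neutrophils, were also lowest in replicate 1 among them, while the thymocyte score was lowest in replicate 3 (-0.14). The 10 macrophage markers summed to 50.0, 88.5 and 103 CPM in the labelled IL3RAKO libraries, against 88.3, 62.3 and 64.1 CPM in WT. The 8 markers of conventional dendritic cells summed to 17.8, 36.8 and 51.9 CPM in the labelled IL3RAKO libraries, against 27.6, 25.8 and 25.4 CPM in WT. Both were lowest in labelled IL3RAKO replicate 1, as the type I score was, but highest in replicate 3, as Ly6a and Bst2 were. Of 9 markers of natural killer and innate T cells, which can make interferon gamma, 8 passed the filter and the list summed to 37.7, 66.4 and 72.0 CPM in the labelled IL3RAKO libraries, against 67.4, 55.1 and 48.9 CPM in WT. Markers of plasmacytoid dendritic cells, a main source of type I interferon, gave scores without Bst2 of -0.30, 0.15 and 0.86 in the labelled IL3RAKO libraries, against -0.40, -0.05 and -0.26 in WT. Their sums went the other way, at 635, 772 and 690 CPM in the labelled IL3RAKO libraries, against 864, 836 and 942 CPM in WT. Most of these sums was Ccr9, which averaged 617 CPM in the labelled IL3RAKO libraries and 814 CPM in WT. Over all libraries Ccr9 averaged 715 CPM, between the thymocyte markers Cd3e (377 CPM) and Cd4 (1164 CPM), whereas Siglech averaged 6.87 CPM. These sums are therefore not read as a measure of plasmacytoid dendritic cells. The 8 markers of late mature thymocytes summed to 427, 534 and 524 CPM in the labelled IL3RAKO libraries, against 546, 476 and 551 CPM in WT. The 7 neutrophil markers summed to 62.9, 30.7 and 363 CPM in the labelled IL3RAKO libraries, against 59.3, 89.3 and 28.5 CPM in WT, with labelled IL3RAKO replicate 3 far above the rest. No marker in the 6 lists given for each library was at 0 over the libraries. The part of any of these cells in the interferon-stimulated transcripts was not tested.

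**Figure D4:**
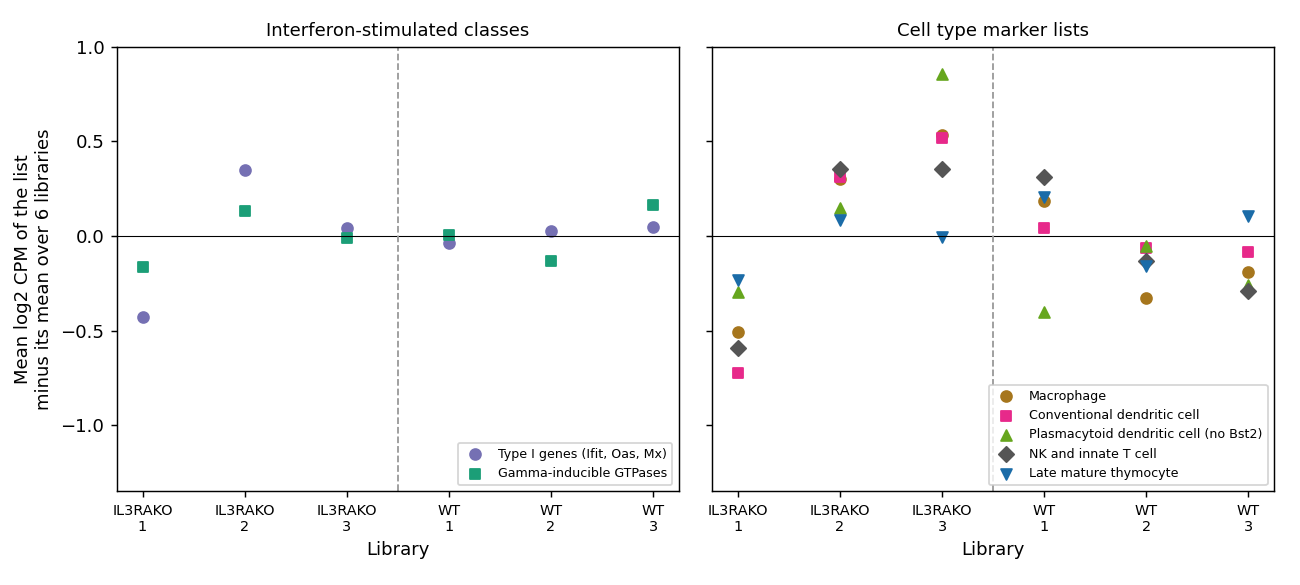
Mean log2 CPM of each list in each library minus its mean over the 6 libraries, for the 2 interferon-stimulated classes (left panel) and for cell type markers (right panel), with labelled IL3RAKO replicates left of WT. Type I scores run from -0.43 to 0.35 over the labelled IL3RAKO libraries and from -0.04 to 0.05 over WT, and macrophage and dendritic cell scores peak in labelled IL3RAKO replicate 3.

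The ligands and receptors above these genes were measured too. Ifnb1, the first type I interferon made in many cells, had 0 counts in all 6 libraries, which allows up to 0.0357 to 0.0519 CPM per library for counting error alone. Ifng had 10, 60 and 29 counts in the labelled IL3RAKO libraries, against 20, 20 and 17 counts in WT. Labelled IL3RAKO replicate 1 was thus the lowest and replicate 2 the highest library for Ifng. This order held in 1 of the 29 tested ligand, receptor, signalling and sensor genes (3.45%, against 2.29% of all tested genes). Ifnar1 had 103, 101 and 96.5 CPM in the labelled IL3RAKO libraries, against 105, 116 and 114 CPM in WT, and its partner Ifnar2 had 37.9, 38.1 and 38.6 CPM against 35.2, 32.1 and 35.2 CPM. The libraries of the genotypes did not overlap for either chain, as for 20.3% of all tested genes, with folds of 0.898 for Ifnar1 and 1.12 for Ifnar2 (edgeR adjusted p = 0.441 and 0.453). Ifngr1 averaged 316 ± 15.2 CPM in the labelled IL3RAKO libraries and 295 ± 17.0 CPM in WT, and Ifngr2 averaged 41.0 ± 0.517 CPM in the labelled IL3RAKO libraries and 46.1 ± 3.86 CPM in WT (SD, n = 3 each).

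Of the 34 listed ligands, receptors, signalling genes and sensors, 29 passed the filter on low counts and 0 passed the test. At an unadjusted p under 0.05 stood 1 gene on the higher side, Cgas, and 2 on the lower side, Irf3 and Ikbke, together 10.3% of the 29, against 14.6% of all tested genes. Irf3, the factor that starts type I interferon transcription, averaged 106 ± 4.33 CPM in the labelled IL3RAKO libraries and 131 ± 8.39 CPM in WT (SD, n = 3 each), a fold of 0.814 (edgeR adjusted p = 0.191). Ikbke, a kinase of Irf3, averaged 88.3 ± 13.1 CPM in the labelled IL3RAKO libraries and 108 ± 2.74 CPM in WT (SD, n = 3 each). The DNA sensor Cgas averaged 8.23 ± 0.876 CPM in the labelled IL3RAKO libraries and 5.74 ± 1.08 CPM in WT (SD, n = 3 each), a fold of 1.43 (edgeR adjusted p = 0.224). The libraries of the genotypes did not overlap in 6 of the 29 genes (Cgas and Ifnar2 higher; Irf3, Ikbke, Ifnar1 and Ifngr2 lower), which is 20.7%, against 20.3% of all tested genes.

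Among 63 further induced genes that are not in the list of 46, 0 passed the test and 5 had an unadjusted p under 0.05 (7.94%, against 14.6% of all tested genes). All 5 were on the lower side, where 6.6% of all tested genes stood. Helz2, a helicase, averaged 181 ± 17.7 CPM in the labelled IL3RAKO libraries and 228 ± 26.0 CPM in WT (SD, n = 3 each), a fold of 0.791 (edgeR adjusted p = 0.227). Parp10, an ADP-ribosyl transferase, averaged 60.4 ± 4.63 CPM in the labelled IL3RAKO libraries and 73.7 ± 5.92 CPM in WT, with a fold of 0.820. Znfx1, an RNA helicase, and Shisa5, a membrane protein of the endoplasmic reticulum, had folds of 0.849 and 0.817, and Slfn2, which keeps T cells quiescent, had one of 0.842. The median log2 fold of the 63 was -0.02. Their score was -0.18, 0.13 and 0.00 in the labelled IL3RAKO libraries, against 0.01, -0.02 and 0.06 in WT, with replicate 1 again lowest and replicate 2 highest.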

How the data were processed

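Thymocyte RNA of 6 mice, 3 in each genotype, was purified on spin columns and turned into stranded mRNA libraries, per the labels' protocols. The submitters' processing notes name STAR 2.5.4b, featureCounts and the build GRCm38. The annotation release, strand setting and rule for reads with several matches are not stated in the sources used here. What the authors deposited is 1 table of raw counts by Ensembl gene, with a column for each library, per the file headers. Symbols, positions and exon lengths were taken from GENCODE M21, which matched all 55536 genes.

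Genes were filtered with filterByExpr (18690 left), scaled by TMM and tested with edgeR 4.0.16 in R 4.3.3 (glmQLFit, robust; glmQLFTest; no covariate; adjusted p threshold of 0.05 by Benjamini-Hochberg over all tested genes). The 95% intervals came from the fold and the F statistic. CPM are the counts over the TMM-scaled library size, and scores used log2 CPM with a prior count of 2. The script was tested on simulated data. The members and lists were chosen with earlier results of these data known, so no list was tested as a set and no p was adjusted over a list alone. In each role, values per library are given for the 3 members of smallest p, for the most abundant per kilobase, and for those whose fold changed sign without 1 library and that spanned over 2-fold within a genotype (32 of the 46); the other 14 are given by range or fold. Alternatives were DESeq2 1.42.0, limma-voom (limma 3.58.1), other scalings and filters, a replicate block, each library left out, the Xist-high libraries left out or fitted as a term, and members that share exon bases with another gene left out.

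Libraries of 1 genotype differed beyond sampling noise (a chi-square of 37.1 to 86.6 for each degree of freedom). The p-values set the genotype difference against a spread that holds differences between these mice, moderated over genes. In the fit reported, that spread also holds the difference between Xist-high and Xist-low libraries. Limits from 3 counts cover counting error only. 1 gene of the signalling list is not reported here.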

Additional observations from a re-analysis of the deposited data

How the results depend on the processing

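None of the 46 members passed the threshold by DESeq2, limma-voom, RLE scaling, total counts alone, a minimum of 1 CPM in 3 libraries or the Xist-high libraries fitted as a term, as in the fit reported. Without a filter on low counts 3 passed (6.52%, against 2.53% of all genes tested there). Without both Xist-high libraries 1 did, Stat2 (2.17%, against 3.98% of all genes tested there). With the replicate block 0 passed and 6 had an unadjusted p under 0.05 (13.0%, against 11.4% of all tested genes), beside 9 without it. Same-numbered libraries did not deviate together (correlations of -0.11, 0.03 and -0.12), but 3 libraries a genotype cannot exclude pairing. Replicate 1 was Xist-high in both genotypes. The labels do not name the numbers as pairs, so the block is given only as an alternative. When members that share exon bases with another gene were left out, 5 of 29 had an unadjusted p under 0.05 (17.2%, against 14.6% of all tested genes), and 1 had genotypes that did not overlap (3.45%, against 20.3%). The GTPase median log2 fold was then 0.12, from Gbp3, Irgm1 and Iigp1 alone, since Igtp and Irgm2 were among those left out. Without both Xist-high libraries 22 members did not overlap between the genotypes (47.8%, against 60.3% of all genes tested there). That setting turned the sign of the log2 folds of Irf7 (0.18), Dhx58 (0.086), Oas1a (0.27), Oasl1 (0.084), Mx2 (-0.041), Usp18 (0.0055), Ifi27l2a (0.22), Iigp1 (0.050) and Ifi47 (0.11), and the cause was not tested. With 1 library left out at a time, 0 members passed in each case, where 8 to 29 of all genes tested did. Of the members, 3 to 11 had an unadjusted p under 0.05 (6.52% to 23.9%, against 6.84% to 18.6% of all genes tested). Those without overlap numbered 4 to 14 (8.70% to 30.4%, against 24.3% to 38.2%). In each of these fits the share of members without overlap was below that of all genes. The median log2 fold ran over -0.15 to 0.13 for all members, -0.18 to 0.27 for type I genes and -0.14 to 0.09 for GTPases. Changes of sign were counted over the members only, so no share over all tested genes is given beside them. In 24 members the sign of the log2 fold changed without 1 library. Its lowest and highest values were Irf7 -0.18 to 0.13, Ifih1 -0.094 to 0.17, Ddx58 -0.10 to 0.030, Dhx58 -0.24 to 0.054, Trim25 -0.22 to 0.020, Ifit1 -0.21 to 0.41, Ifit3 -0.19 to 0.33, Ifit3b -0.066 to 0.37, Oas1a -0.42 to 0.27, Oasl1 -0.18 to 0.15, Oasl2 -0.13 to 0.27 and Mx2 -0.17 to 0.18. For the remaining such members they were Isg15 -0.076 to 0.35, Usp18 -0.26 to 0.11, Rsad2 -0.24 to 0.47, Ifi44 -0.090 to 0.39, Ifi27l2a -0.32 to 0.052, Rtp4 -0.33 to 0.062, Xaf1 -0.23 to 0.038, Lgals3bp -0.048 to 0.15, Ly6a -0.31 to 0.59, Ly6e -0.0096 to 0.18, Iigp1 -0.47 to 0.32 and Ifi47 -0.11 to 0.054. With 3 libraries a genotype, differences inside the 95% intervals are not resolved, and for Ly6a that interval passes 2-fold.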
